A study of Mus musculus with 24 samples.

Results

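Microglia of the adult mouse striatum were sequenced after an injection of lipopolysaccharide (LPS), the endotoxin of Gram-negative bacteria, or of saline, and the LPS effect in control animals is described here over all genes. The comparison takes every library labelled control, striatum and either LPS or saline. These are 6 of the 24 libraries of the series, 3 with LPS and 3 with saline. The LPS group was male mice aged 8 to 10 weeks that received 4500 endotoxin units of LPS per gram of body weight intraperitoneally and were sampled 18 h later. The saline group was male mice of the same age that received saline and were sampled after the same time. Both groups carry the label CON, which sets them apart from the offspring with prenatal immune stress (MIA) that the same study compared. The labels used here state no strain and no treatment of the control dams. They do not say whether the replicates of a group are separate animals or pools, and p-values therefore reflect no more than the variation among libraries. That variation was estimated over the 23 libraries of the series not marked excluded, which include cortex and MIA libraries. Each library was taken as independent. Brains were perfused and freed of meninges, the anterior, dorsal and ventral striatum of each sample were combined, and cells that bound CD11b beads were lysed and their RNA copied from an oligo-dT primer by a modified Smart-Seq2 method. CD11b is carried by microglia and also by neutrophils, monocytes, border-associated macrophages and natural killer cells, so the fraction is rich in microglia but not limited to them.

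Microglia are the resident macrophages of the brain. In the healthy tissue they survey their surroundings in a state that depends on the growth factor receptor CSF1R and on TGF-beta, and that is marked by genes such as P2ry12, Tmem119 and Sall1. LPS is bound by CD14 and the complex of TLR4 and MD-2, which signals through the adaptors MyD88 and TRIF to the transcription factors NF-kB, AP-1 and the interferon regulatory factors. Interferon beta made in this response acts back through its receptor and STAT factors on a large set of antiviral genes.

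Each of the 6 libraries held between 19453295 and 28229361 counts, with 17723 to 20324 genes detected, and mitochondrial transcripts made up 1.93% to 4.37% of its counts. Levels are given as CPM, which are counts scaled to library size. Cx3cr1, the fractalkine receptor gene and a defining gene of microglia, was abundant in all 6, at 4480.2, 5582 and 6614 CPM with LPS, against 6796, 6706 and 7034 CPM with saline. It was not called (log2 fold change -0.30 ± 0.14, SE, adjusted p = 0.146), although the 3 LPS libraries lay below the 3 saline libraries. On a principal component analysis the first component took 43.5% of the variance and separated the treatments, and the second took 21.4% and put LPS replicates 1 and 2 at opposite ends, with the other 4 libraries between them. Markers of astrocytes summed to 632 to 1920 CPM with LPS and 1360 to 1940 CPM with saline, where the upper LPS value was that of replicate 1. Ependymal and choroid plexus markers were high in LPS replicate 1 and saline replicate 3, at 9.59 to 67.4 CPM with LPS and 15.8 to 72.5 CPM with saline.

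Across the 17139 genes tested, 2180 genes were higher with LPS (12.7%) and 1396 lower (8.15%) at an adjusted p under 0.05 in edgeR's quasi-likelihood test, and the median log2 fold change of all genes was -0.02. A change of at least 2-fold was reached by 989 of the genes that rose and 864 of those that fell, and a change of at least 8-fold by 180 and 136. Among the called genes, all 3 LPS libraries lay above all 3 saline libraries for 2072 of the genes that rose and below them for 1332 of the genes that fell. The same separation was seen for 3012 and 2974 genes of all those tested. Counts of called list members given below are to be read beside the 12.7% and 8.15% of all genes. Fitted on the 6 libraries alone, the count of higher genes was 1325, and that of lower genes 981. Where a called gene missed the threshold of 0.05 in another setting, this is given at the end of the paragraph that gives its value, with the highest adjusted p reached: without 1 of the libraries, in the 6 libraries alone, with the MIA library that the submitters excluded added back, with no filter on low counts, with a replicate block, with other scaling or in DESeq2.

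**Figure D1:**
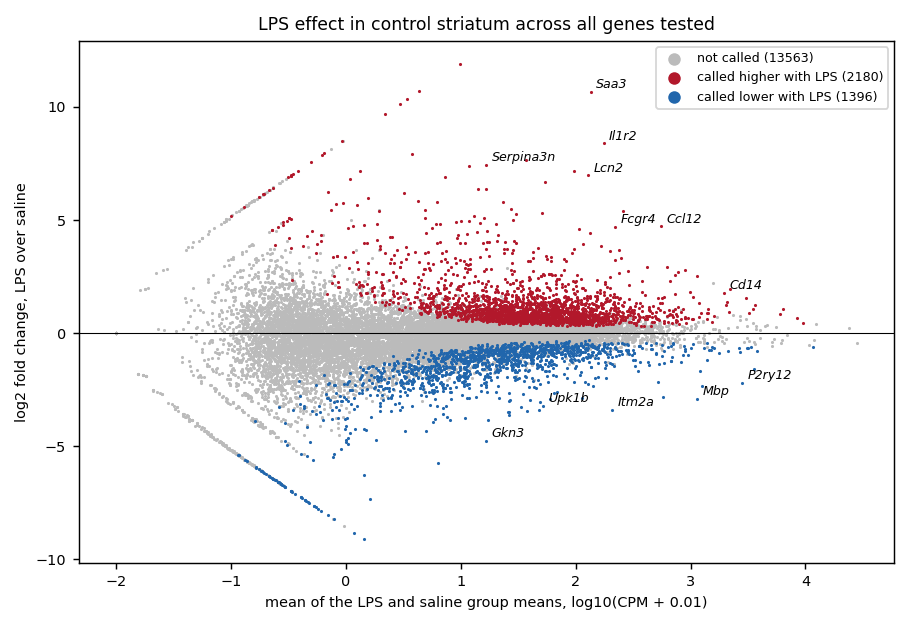
Log2 fold change (LPS over saline, vertical axis) of all 17139 genes tested in control striatum against the mean of the LPS and saline levels (horizontal axis, log10 of CPM + 0.01); each point is a gene, red where called higher (2180 genes), blue where called lower (1396 genes) and grey otherwise. Of the labelled genes, Saa3 lies at 10.67 and Gkn3 at -4.75.

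The genes with the largest rises encode acute-phase, decoy and innate receptor proteins. Saa3, a serum amyloid A gene made by macrophages, stood at 269, 191 and 356 CPM with LPS, against 0, 0.341 and 0.134 CPM with saline (log2 fold change 10.67 ± 1.56, SE, adjusted p = 4.78e-05). Il1r2, the decoy receptor for interleukin-1, stood at 364, 275 and 411 CPM with LPS, against 0.918, 1.11 and 1.07 CPM with saline (8.39 ± 0.63, adjusted p = 2.01e-08). The groups were far apart for both genes. Ackr1, a chemokine-binding receptor of venular endothelium and red cells, was at 98.6, 61.2 and 60.9 CPM with LPS, against 0.435, 0.724 and 0 CPM with saline (7.64 ± 0.60). Cd244a, an immune receptor of the SLAM family, was at 214, 150.1 and 209 CPM with LPS, against 0.338, 0.894 and 2.55 CPM with saline (7.17 ± 0.49), and the activating receptor genes Tarm1 and Pilrb1 had log2 fold changes of 6.92 ± 1.13 and 6.36 ± 0.48. The scavenger receptor gene Marco had no count in any saline library and 16.3, 6.32 and 35.9 CPM with LPS. Against 3 counts over the saline group, the most that 0 counts allow, it was at least 529-fold higher. On the same basis the interferon-inducible gene Ifi205 was at least 216-fold higher, the B cell attracting chemokine gene Cxcl13 at least 160-fold and the granulocyte growth factor gene Csf3 at least 141-fold. These limits cover counting error only.

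The largest falls were in genes of several cell types. Gkn3, a gene of arterial endothelium in mouse brain, was at 2.31, 0.857 and 0.443 CPM with LPS, against 35.6, 47.7 and 13.5 CPM with saline (-4.75 ± 0.76, adjusted p = 1.29e-04). Mycl, a MYC family transcription factor gene, was at 1.34, 2.68 and 7.53 CPM with LPS, against 56.5, 51.5 and 36.8 CPM with saline (-3.62 ± 0.59, adjusted p = 1.56e-04). No LPS library reached the saline range for either. Alpl, the tissue-nonspecific alkaline phosphatase gene (-3.86 ± 0.56), and the organic anion transporter gene Slc22a8 (-3.50 ± 0.48) are expressed by brain endothelium, and Spock2 (-3.42 ± 0.66) encodes an extracellular proteoglycan. The other large falls were in Angptl7 (-3.83 ± 0.54), the steroid-metabolising enzyme gene Akr1c14 (-3.91 ± 0.75), Adamts16 (-3.77 ± 0.77), the extracellular matrix gene Fbln2 (-3.72 ± 0.70), Ccdc162 (-3.77 ± 0.42) and the TNF receptor family gene Tnfrsf17 (-3.59 ± 0.52). Another of the largest falls, in the clock repressor gene Nr1d2, is given with the clock genes.

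Members of the LPS receptor complex changed in both directions. Of 22 genes measured, 6 rose and 3 fell, with a median log2 fold change of 0.38. Cd14, the co-receptor that hands LPS to TLR4, was at 4244, 1877 and 3007 CPM with LPS, against 924, 819 and 899 CPM with saline (1.79 ± 0.24, adjusted p = 1.62e-05), and all LPS libraries exceeded all saline libraries. Tlr4 itself was at 94.4, 139 and 184 CPM with LPS, against 139, 109 and 123 CPM with saline, with overlapping groups, and was not called (0.17 ± 0.25, adjusted p = 0.702). The genes for the TLR4 homologue CD180 (-1.18 ± 0.22), for MD-2 (Ly96, -0.59 ± 0.18) and for the CD180 partner MD-1 (Ly86, -0.57 ± 0.15) fell. The adaptor gene Myd88 rose by 0.83 ± 0.12, the adaptor gene Pik3ap1 by 0.72 ± 0.18 and the inhibitory kinase gene Irak3 by 1.21 ± 0.32. The kinase gene Ikbke, which acts toward the interferon regulatory factors, was at 6.98, 7.29 and 10.6 CPM with LPS, against 0.387, 0 and 0.067 CPM with saline (5.83 ± 0.91, adjusted p = 9.95e-05). Fitted on the 6 libraries alone, 1 gene of this list fell. Ly96 missed the threshold without LPS replicate 1 or 3 or saline replicate 2 or 3, with no filter or in the 6 libraries alone (adjusted p up to 0.115), and Ly86 missed the threshold without LPS replicate 2 or in the 6 libraries alone (adjusted p up to 0.0556). Pik3ap1 missed the threshold with the excluded library added back (adjusted p = 0.0923), and Irak3 missed the threshold without LPS replicate 1 (adjusted p = 0.059).

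Of 23 other Toll-like receptors and sensors, 9 rose and none fell (median 0.28), a count of falls that was 1 without LPS replicate 2 or 3. Tlr2, the receptor for bacterial lipopeptides, stood at 1105, 1067 and 1198 CPM with LPS, against 396, 342 and 291 CPM with saline (1.71 ± 0.16, adjusted p = 2.82e-07), with no overlap. Its partner gene Tlr1 rose by 1.53 ± 0.14. The nucleic acid sensor genes Zbp1 (5.00 ± 0.59), Dhx58 (2.20 ± 0.35), Ifih1 (1.12 ± 0.24) and Cgas (1.04 ± 0.20) rose as well, as did Clec4e, the receptor for mycobacterial glycolipids, by 3.98 ± 0.69. Zbp1 stood at 56.7, 39 and 69.2 CPM with LPS, against 2.37, 1.57 and 1.24 CPM with saline.

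Genes of the NF-kB system changed in part. Of 19 measured, 5 rose and 1 fell (median 0.51). Nfkb2, the subunit of the alternative pathway, was at 38.9, 49.6 and 61.3 CPM with LPS, against 22.6, 19.8 and 16.4 CPM with saline (1.35 ± 0.26). The atypical inhibitor gene Bcl3 was at 8.18, 18.8 and 10.6 CPM with LPS, against 0.387, 0.383 and 2.35 CPM with saline (3.55 ± 0.69). Tank, which links receptors to the kinases of the pathway, rose by 1.03 ± 0.16 and the inhibitor gene Nfkbib by 1.16 ± 0.29. Nfkb1, the p105/p50 subunit gene, was at 76.7, 93.9 and 54.4 CPM with LPS, against 138, 133 and 152 CPM with saline (-0.91 ± 0.24, adjusted p = 0.00845). The groups did not overlap for Nfkb2, Bcl3 and Nfkb1. The feedback inhibitor gene Nfkbia was not called, at 4265, 2634 and 2705 CPM with LPS, against 2125, 2235 and 2075 CPM with saline (0.58 ± 0.23, adjusted p = 0.0807). Rela, the p65 subunit gene, was not called either (-0.08 ± 0.17, adjusted p = 0.802). Nfkbib missed the threshold without LPS replicate 1 (adjusted p = 0.0633), and Nfkb1 missed the threshold without LPS replicate 3 (adjusted p = 0.0511).

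The immediate-early genes of the AP-1 family also respond to the handling of tissue. Fos stood at 3151, 2992 and 2927 CPM with LPS, against 5015, 3709.5 and 3951 CPM with saline, without overlap, and was not called (-0.48 ± 0.23, adjusted p = 0.151). Of the 22 AP-1, CEBP and MAP kinase feedback genes, 2 rose, Map3k8 by 1.01 ± 0.28 and Ier3 by 1.12 ± 0.29, and 1 fell (median 0.20), Jun (-0.80 ± 0.20). Of all genes, 12.7% rose and 8.15% fell. The counts of this list moved with single libraries. The count of rises was 1 without LPS replicate 2, without saline replicate 2 and in the 6 libraries alone, 4 without saline replicate 3 and 5 with a replicate block, and that of falls was 0 without saline replicate 1 and 2 without LPS replicate 3. Map3k8 missed the threshold without LPS replicate 1 or saline replicate 2 (adjusted p up to 0.0734), and Ier3 missed the threshold without LPS replicate 2 or in the 6 libraries alone (adjusted p up to 0.0827). Jun missed the threshold without saline replicate 1 or in the 6 libraries alone (adjusted p up to 0.0608).

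Inflammasome genes rose in 10 of 16 cases and none fell (median 0.74). The sensor gene Nlrp3 was at 261, 166 and 204 CPM with LPS, against 118, 70.7 and 88.2 CPM with saline (1.19 ± 0.31, adjusted p = 0.00857), the adaptor gene Pycard rose by 0.87 ± 0.16, and the caspase genes Casp1 and Casp4, the second of which encodes a receptor for cytosolic LPS, rose by 0.87 ± 0.16 and 1.27 ± 0.25. Naip2, a sensor of bacterial secretion systems, rose by 1.21 ± 0.22, and the necroptosis genes Ripk3 and Mlkl by 1.14 ± 0.23 and 2.49 ± 0.79. Nlrp3 missed the threshold without saline replicate 2 or with the excluded library added back (adjusted p up to 0.0825), and Mlkl missed the threshold without LPS replicate 1 or saline replicate 1 or 3 (adjusted p up to 0.118).

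**Figure D2:**
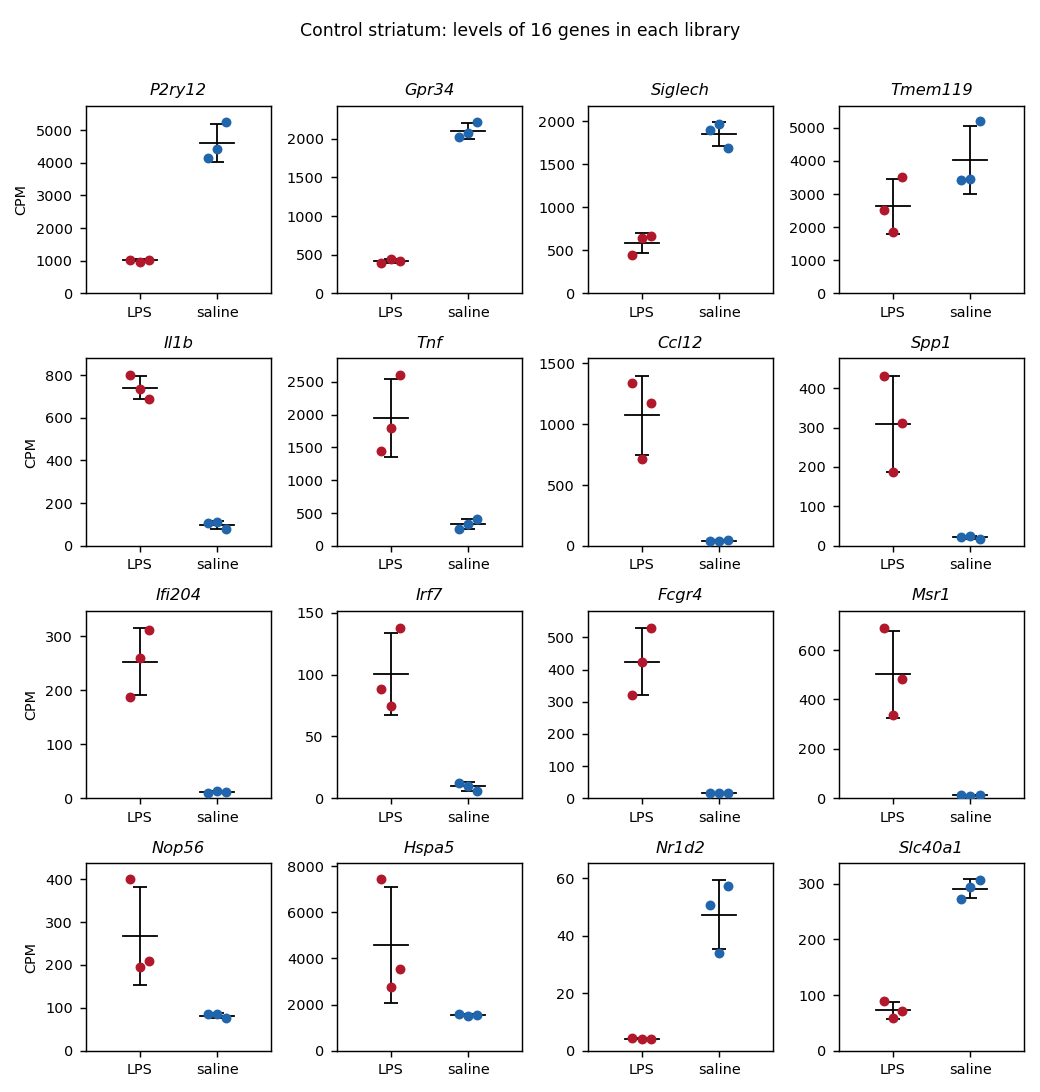
Level of 16 genes in control striatum, in CPM on axes that start at 0, with LPS libraries left and saline libraries right in each panel; each point is a library, and the bars are the mean and SD of 3 libraries. P2ry12 is at 1021, 975 and 1029.8 CPM with LPS and at 4157, 4413 and 5251 CPM with saline, and of the 16 genes only Tmem119 overlaps between the groups.

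Cytokine ligand genes rose in 13 of 26 cases and fell in 3, with a median log2 fold change of 1.46. Il1b, a main fever-inducing cytokine, was at 800.3, 734 and 690.5 CPM with LPS, against 107, 111 and 78.5 CPM with saline (2.91 ± 0.24, adjusted p = 5.46e-08). Tnf was at 1443, 1792 and 2602 CPM with LPS, against 260.4, 329 and 414 CPM with saline (2.54 ± 0.27, adjusted p = 1.16e-06). Neither pair of groups overlapped. The antagonist of interleukin-1, Il1rn, was at 42.7, 28.2 and 29.5 CPM with LPS, against 1.55, 2.0 and 2.48 CPM with saline (4.05 ± 0.39). Il12b, the shared subunit of interleukin-12 and interleukin-23, was at 53.2, 7.98 and 9.68 CPM with LPS, against 0.193, 0.128 and 0.101 CPM with saline (7.38 ± 1.00), with LPS replicate 1 above the other LPS libraries. Il6 was at 14.1, 15.2 and 19.8 CPM with LPS, against 4.98, 5.15 and 6.73 CPM with saline (1.54 ± 0.34, adjusted p = 0.00228). The microglial growth factor gene Csf1 rose by 1.45 ± 0.30, oncostatin M (Osm) by 2.37 ± 0.25, osteopontin (Spp1) by 3.86 ± 0.35, the T cell co-stimulus gene Tnfsf9 by 3.69 ± 0.50 and the interleukin-18 binding protein gene Il18bp by 3.35 ± 0.46. The growth factor genes Hbegf (-1.31 ± 0.35) and Igf1 (-1.15 ± 0.25) and the CD4 ligand gene Il16 (-0.84 ± 0.19) fell. Hbegf missed the threshold in the 6 libraries alone (adjusted p = 0.0515).

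Of 23 chemokine genes, 12 rose and 2 fell (median 1.58). The monocyte attractant Ccl12 was at 1337, 712 and 1174 CPM with LPS, against 36.4, 38.3 and 47 CPM with saline (4.73 ± 0.31, adjusted p = 3.31e-09). Ccl2 was at 333, 326 and 352 CPM with LPS, against 43.2, 70 and 67.9 CPM with saline (2.48 ± 0.28). The interferon-induced T cell attractant Cxcl10 was at 116, 102 and 126 CPM with LPS, against 22.6, 24.5 and 19.1 CPM with saline (2.38 ± 0.37). For these 3 genes the lowest LPS library exceeded the highest saline library. Ccl5 was at 90.1, 23.2 and 62.7 CPM with LPS, against 1.3, 1.28 and 1.98 CPM with saline (5.25 ± 0.63), the macrophage inflammatory proteins Ccl3 and Ccl4 rose by 1.57 ± 0.23 and 1.58 ± 0.23, the neutrophil attractant Cxcl2 by 2.38 ± 0.46 and the membrane-bound Cxcl16 by 1.98 ± 0.22. The 2 falls were in Cxcl12 and Ccl24. The stromal factor Cxcl12 was at 6.66, 15.8 and 8.94 CPM with LPS, against 119, 99.4 and 43.7 CPM with saline (-3.06 ± 0.52). The eosinophil attractant Ccl24 was at 3.28, 3.05 and 2.55 CPM with LPS, against 11.6, 21 and 13.5 CPM with saline (-2.37 ± 0.28).

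A match to the kB motif GGGANNTTCC, the sequence that NF-kB binds, was found in the promoter window of 4 of 16 matched chemokine genes and of 4 of 18 cytokine genes, against 1.78% of all 12008 genes with a window. Windows were the 300 bases from 250 before to 50 after the start in RefSeq (GRCm38.p6), searched on both strands. The 12008 genes had 15337 windows, and a gene was counted where any of its windows held a match. The 250 bases before the start of Cxcl10 (chr5:92348890-92349139, minus strand) are shown because they hold a kB match and a match to the interferon motif GAAANNGAAA, with both in capitals and written 5′ to 3′ along the gene.
Cxcl10: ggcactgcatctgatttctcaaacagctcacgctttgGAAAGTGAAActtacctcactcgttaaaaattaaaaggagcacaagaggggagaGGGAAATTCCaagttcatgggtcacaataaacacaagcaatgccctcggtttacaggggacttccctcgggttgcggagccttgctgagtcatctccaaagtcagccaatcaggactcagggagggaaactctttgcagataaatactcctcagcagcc
The stretches around the kB match in Cxcl2, Il6 and Csf1, which rose, and in Il16, which fell, follow with the match in capitals (Cxcl2 chr5:90903792-90903821 and Il6 chr5:30013060-30013089 on the plus strand, Csf1 chr3:107760604-107760633 and Il16 chr7:83655525-83655554 on the minus strand; the Csf1 match reads as the reverse complement).
Cxcl2: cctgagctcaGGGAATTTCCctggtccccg
Il6: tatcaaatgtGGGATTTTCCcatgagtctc
Csf1: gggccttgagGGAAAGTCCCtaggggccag
Il16: catgactgctGGGAATTTCCcgctaaaggt
The motif was in 2 of the 7 matched chemokine genes that rose and 2 of the 8 not called, and in 2 of the 10 matched cytokine genes that rose and 1 of the 6 not called, with Il16 as the other match. A match is a description of letters and not evidence of binding.

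Receptor genes for cytokines and chemokines rose in 12 of 33 cases and fell in 3 (median 0.38). Il4ra, shared by the interleukin-4 and interleukin-13 receptors, was at 356, 612 and 787 CPM with LPS, against 169, 139.5 and 182 CPM with saline (1.84 ± 0.22, adjusted p = 3.71e-06). The common gamma chain gene Il2rg was at 128, 49.9 and 77 CPM with LPS, against 15.4, 15.4 and 14 CPM with saline (2.51 ± 0.26). Both were separated without overlap. The common beta chain gene Csf2rb rose by 1.63 ± 0.19, the chemokine receptor gene Ccr1 by 1.42 ± 0.34 and the interleukin-18 co-receptor gene Il18rap by 5.10 ± 0.83. The falls were in Il6ra (-0.61 ± 0.18) and its signal-transducing partner Il6st (-0.80 ± 0.21), which together form the interleukin-6 receptor, and in the TGF-beta receptor gene Tgfbr1 (-1.20 ± 0.36). The count of falls was 1 without LPS replicate 2, 5 without LPS replicate 3 and 0 with the library excluded by the submitters added back. Csf1r, whose signal microglia need to survive, was at 6561, 7449 and 12375 CPM with LPS, against 13041, 11232 and 13588 CPM with saline and was not called (-0.52 ± 0.21, adjusted p = 0.0946). Il6ra missed the threshold without LPS replicate 2 or saline replicate 1 or with the excluded library added back (adjusted p up to 0.0914), and Il6st missed the threshold with the excluded library added back (adjusted p = 0.13). Tgfbr1 missed the threshold without LPS replicate 1 or 2 or saline replicate 3 or with the excluded library added back (adjusted p up to 0.158).

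Of 20 negative regulators of cytokine signalling, 7 rose and 1 fell (median 0.37). Besides Il1r2 and Il1rn these included the inhibitory receptor gene Cd300lf, at 105, 79.2 and 113 CPM with LPS, against 2.47, 1.7 and 3.32 CPM with saline (5.30 ± 0.43), the leukocyte inhibitory receptor gene Lilrb4a (3.17 ± 0.32) and the checkpoint ligand gene Cd274 (2.14 ± 0.41). The checkpoint gene Vsir fell (-0.63 ± 0.19). Vsir missed the threshold without LPS replicate 1 or 2 or saline replicate 1 or 3, with the excluded library added back or in the 6 libraries alone (adjusted p up to 0.129).

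Type I interferon effectors, the antiviral genes that interferon switches on, rose in 40 of 50 cases and none fell, with a median log2 fold change of 2.22. Ifi204, a DNA-binding protein gene, was at 188, 260.1 and 312 CPM with LPS, against 10.1, 13.8 and 11.5 CPM with saline (4.42 ± 0.38, adjusted p = 1.16e-07). Oas1a, a synthetase that activates RNase L, was at 103, 82.2 and 147 CPM with LPS, against 11.9, 10 and 10.1 CPM with saline (3.38 ± 0.40). The ubiquitin-like Isg15 was at 15.9, 16.2 and 28.3 CPM with LPS, against 3.58, 2.34 and 2.68 CPM with saline (2.81 ± 0.53). No LPS library entered the saline range for any of the 3. The membrane proteins that restrict virus entry rose, Ifitm3 by 3.32 ± 0.37, as did Ifit1, which binds viral RNA, by 2.33 ± 0.48, the tether Bst2 by 2.01 ± 0.25, Rsad2, which makes a chain-terminating nucleotide, by 2.32 ± 0.47 and Slfn2 by 3.24 ± 0.19. The values of Ifi204, of the Oas genes, of Ifitm3 and of Slfn2 depend on how reads were shared among near-identical genes.

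Their regulators rose in part. Of 17 interferon ligand, receptor, JAK and STAT genes, 6 rose and none fell (median 0.33), with Stat2 at a log2 fold change of 1.56 ± 0.38, Stat3 at 0.98 ± 0.17, the interferon gamma receptor gene Ifngr2 at 0.54 ± 0.13 and the deconjugating enzyme gene Usp18 at 3.18 ± 0.54. Of 9 interferon regulatory factors, 3 rose and 2 fell (median -0.29). Irf7, the amplifier of the interferon response, was at 88.2, 74.8 and 138 CPM with LPS, against 12.6, 10.3 and 5.8 CPM with saline (3.40 ± 0.58, adjusted p = 2.42e-04), Irf9, a partner of the STAT2 factor, rose by 1.41 ± 0.17, and Irf3 by 0.49 ± 0.10. Irf8, a factor that microglia need, had -0.29 ± 0.13 and was not called (adjusted p = 0.119). Irf4 fell (-0.90 ± 0.32). Falls numbered 1 without either LPS replicate 1 or LPS replicate 2, and 0 without saline replicate 1 or 2. Stat2 missed the threshold without LPS replicate 3 (adjusted p = 0.0501), and Ifngr2 missed the threshold in the 6 libraries alone (adjusted p = 0.0706). Irf3 missed the threshold with no filter or in the 6 libraries alone (adjusted p up to 0.0821), and Irf4 missed the threshold without LPS replicate 1 or 3 or saline replicate 1 or 2, with the excluded library added back, with no filter or in the 6 libraries alone (adjusted p up to 0.212).

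Guanylate-binding proteins and immunity-related GTPases, which attack the vacuoles of intracellular microbes, rose in 8 of 15 cases, and none fell (median 1.32). Gbp7 was at 372, 197 and 256 CPM with LPS, against 72.9, 78.5 and 79.8 CPM with saline (1.84 ± 0.22, adjusted p = 4.78e-06). Gbp2 was at 119, 77.1 and 124 CPM with LPS, against 30.2, 30.2 and 20.6 CPM with saline (1.98 ± 0.39, adjusted p = 8.66e-04), without overlap. The GTPase genes Igtp (1.66 ± 0.25), Irgm1 (1.26 ± 0.31) and Tgtp2 (2.29 ± 0.54) rose, the last with reads shared with Tgtp1.

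The interferon-stimulated response element (ISRE) is the site of STAT and IRF complexes, and was searched as GAAANNGAAA. It was found in the windows of 3.96% of all genes, 6.33% of genes called higher, 9.72% of those called higher at least 2-fold and 3.61% of genes called lower. Among type I interferon effectors it was in 19 of 40 matched genes, 18 of the 32 that rose and 1 of the 8 that were not called. It was in all 9 matched guanylate-binding protein and GTPase genes, both the 6 that rose and the 3 that were not called, and in 5 of 21 class I MHC and peptide loading genes. The stretches with the match in capitals are shown for 6 genes of these lists to let the spacing and flanks be compared (GRCm38.p6; Ifitm2 chr7:140955988-140956017, Ifi211 chr1:173913064-173913093, Oas1a chr5:120907526-120907555 and Bst2 chr8:71537583-71537612 on the minus strand, Igtp chr11:58199512-58199541 and Gbp2 chr3:142620594-142620623 on the plus strand).
Ifitm2: ccaccaacagGAAAAGGAAAttgctagaga
Ifi211: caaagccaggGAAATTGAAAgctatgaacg
Oas1a: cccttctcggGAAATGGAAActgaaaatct
Bst2: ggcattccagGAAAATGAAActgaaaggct
Igtp: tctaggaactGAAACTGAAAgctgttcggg
Gbp2: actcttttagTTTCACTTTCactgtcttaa
The Gbp2 match reads as the reverse complement. The first base of the match lay -46 bases from the start in Ifitm2, -37 in Ifi211, -20 in Oas1a, -130 in Bst2, -34 in Igtp and -59 in Gbp2.

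Genes of class I antigen presentation rose in 17 of 24 cases and none fell (median 0.91). The light chain gene B2m was at 3488, 3964 and 5103 CPM with LPS, against 1988, 2208 and 2589 CPM with saline (0.89 ± 0.15, adjusted p = 1.59e-04). The proteasome activator gene Psme2 was at 257, 177 and 221 CPM with LPS, against 76, 82.9 and 83 CPM with saline (1.44 ± 0.15). Its partner Psme1 rose by 0.91 ± 0.16. The heavy chain genes H2-D1 (0.91 ± 0.19) and H2-K1 (0.99 ± 0.18), the non-classical H2-T22 (1.31 ± 0.18), the peptide transporter gene Tap1 (1.32 ± 0.29), the immunoproteasome genes Psmb8 (0.72 ± 0.18) and Psmb10 (1.11 ± 0.17) and the class I transactivator gene Nlrc5 (2.20 ± 0.51) rose. The H2 genes are near-identical and the sharing of reads among them is uncertain. Of 16 class II and co-stimulation genes, 3 rose (Cd86 by 0.64 ± 0.19, Icosl by 0.50 ± 0.16 and Cd274) and 2 fell (median 0.34). The shares over all genes were 12.7% higher and 8.15% lower. The class II chain gene H2-Eb1 was at 17.1, 16.3 and 10.5 CPM with LPS, against 34.2, 57.1 and 33.5 CPM with saline (-1.51 ± 0.39). H2-Aa was at 16.5, 21.5 and 18.4 CPM with LPS, against 37.8, 60.3 and 40.2 CPM with saline (-1.29 ± 0.36), while the invariant chain gene Cd74 had 0.48 ± 0.32 (adjusted p = 0.331). The count of rises was 1 without saline replicate 1 or 2 and in the 6 libraries alone, and that of falls 1 without LPS replicate 1 and 0 without saline replicate 2. Psmb8 missed the threshold in the 6 libraries alone (adjusted p = 0.0529), and Cd86 missed the threshold without LPS replicate 1 or saline replicate 1 or 2 or in the 6 libraries alone (adjusted p up to 0.112). Icosl missed the threshold without LPS replicate 3 or saline replicate 1, 2 or 3, with median-of-ratios scaling, with the excluded library added back, with no filter or in the 6 libraries alone (adjusted p up to 0.224), and H2-Eb1 missed the threshold without saline replicate 2 (adjusted p = 0.0506). H2-Aa missed the threshold without LPS replicate 1 or saline replicate 2 (adjusted p up to 0.0698).

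Genes of surveying microglia fell in 20 of 34 cases and rose in 3, with a median of -0.60. Upk1b, which encodes a tetraspanin, was at 11, 11.8 and 7.57 CPM with LPS, against 87.8, 102 and 89.7 CPM with saline (-3.21 ± 0.23, adjusted p = 1.30e-08). Gpr34, a lysophosphatidylserine receptor gene, was at 398, 444 and 419 CPM with LPS, against 2025, 2071 and 2218 CPM with saline (-2.32 ± 0.12, adjusted p = 1.55e-10). P2ry12, the ADP receptor that steers microglial processes, was at 1021, 975 and 1029.8 CPM with LPS, against 4157, 4413 and 5251 CPM with saline (-2.19 ± 0.18). The LPS libraries of these genes lay far below the saline libraries and close to each other. The fructose transporter gene Slc2a5 fell (-2.14 ± 0.25), the sialic acid binding lectin gene Siglech (-1.66 ± 0.16), Crybb1 (-1.50 ± 0.18), the adhesion receptor gene Adgrg1 (-1.32 ± 0.23) and the lipid sensor gene Trem2 (-0.79 ± 0.14). Tmem119, by contrast, overlapped between the groups, at 2529, 1861 and 3499 CPM with LPS, against 3421, 3462 and 5217 CPM with saline (-0.62 ± 0.22, adjusted p = 0.0472). The count of falls was 13 without LPS replicate 1, 12 without LPS replicate 2 and 11 in the 6 libraries alone. Tmem119 missed the threshold without LPS replicate 1 or 2 or saline replicate 3, with the excluded library added back or in the 6 libraries alone (adjusted p up to 0.249).

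The 3 genes that rose against this direction were purine, UDP and fatty acid receptors. Gpr84, a receptor for medium-chain fatty acids, was at 1426, 1373 and 1838 CPM with LPS, against 372, 404 and 554 CPM with saline (1.80 ± 0.28, adjusted p = 9.08e-05). P2ry6, the UDP receptor that triggers phagocytosis, was at 342, 344 and 559 CPM with LPS, against 198, 211 and 259.6 CPM with saline (0.90 ± 0.16). The ATP-gated channel gene P2rx4 was at 165, 87.8 and 133 CPM with LPS, against 54, 61.7 and 74.1 CPM with saline (1.02 ± 0.20). All 3 were without overlap. Among purine receptors of the list, P2ry12 and P2ry13 (-0.68 ± 0.21) thus fell while P2ry6 and P2rx4 rose. P2ry13 missed the threshold without LPS replicate 1 or 2 or saline replicate 3 or in the 6 libraries alone (adjusted p up to 0.153).

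Of 38 microglial and macrophage transcription factor genes, 7 rose and 3 fell (median -0.06), beside 12.7% and 8.15% of all genes. Sall1, which maintains microglial identity, was at 83.9, 122 and 109 CPM with LPS, against 242, 244 and 272 CPM with saline (-1.27 ± 0.18, adjusted p = 4.08e-05), and Mef2c fell (-0.67 ± 0.12). The lineage factor gene Spi1 rose by 0.54 ± 0.12, the oxysterol receptor gene Nr1h3 by 1.75 ± 0.39, Etv6 by 1.14 ± 0.17, Id2 by 1.60 ± 0.44 and Bhlhe41 by 0.86 ± 0.30. The other fall was in Egr2 (-1.40 ± 0.45). In the 6 libraries alone 4 of these genes rose. Spi1 missed the threshold in the 6 libraries alone (adjusted p = 0.0799), and Id2 missed the threshold without LPS replicate 1 (adjusted p = 0.0801). Bhlhe41 missed the threshold without LPS replicate 1 or saline replicate 1 or 2, with median-of-ratios scaling or in the 6 libraries alone (adjusted p up to 0.237), and Egr2 missed the threshold without LPS replicate 1 or saline replicate 1, 2 or 3 (adjusted p up to 0.13).

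**Figure D3:**
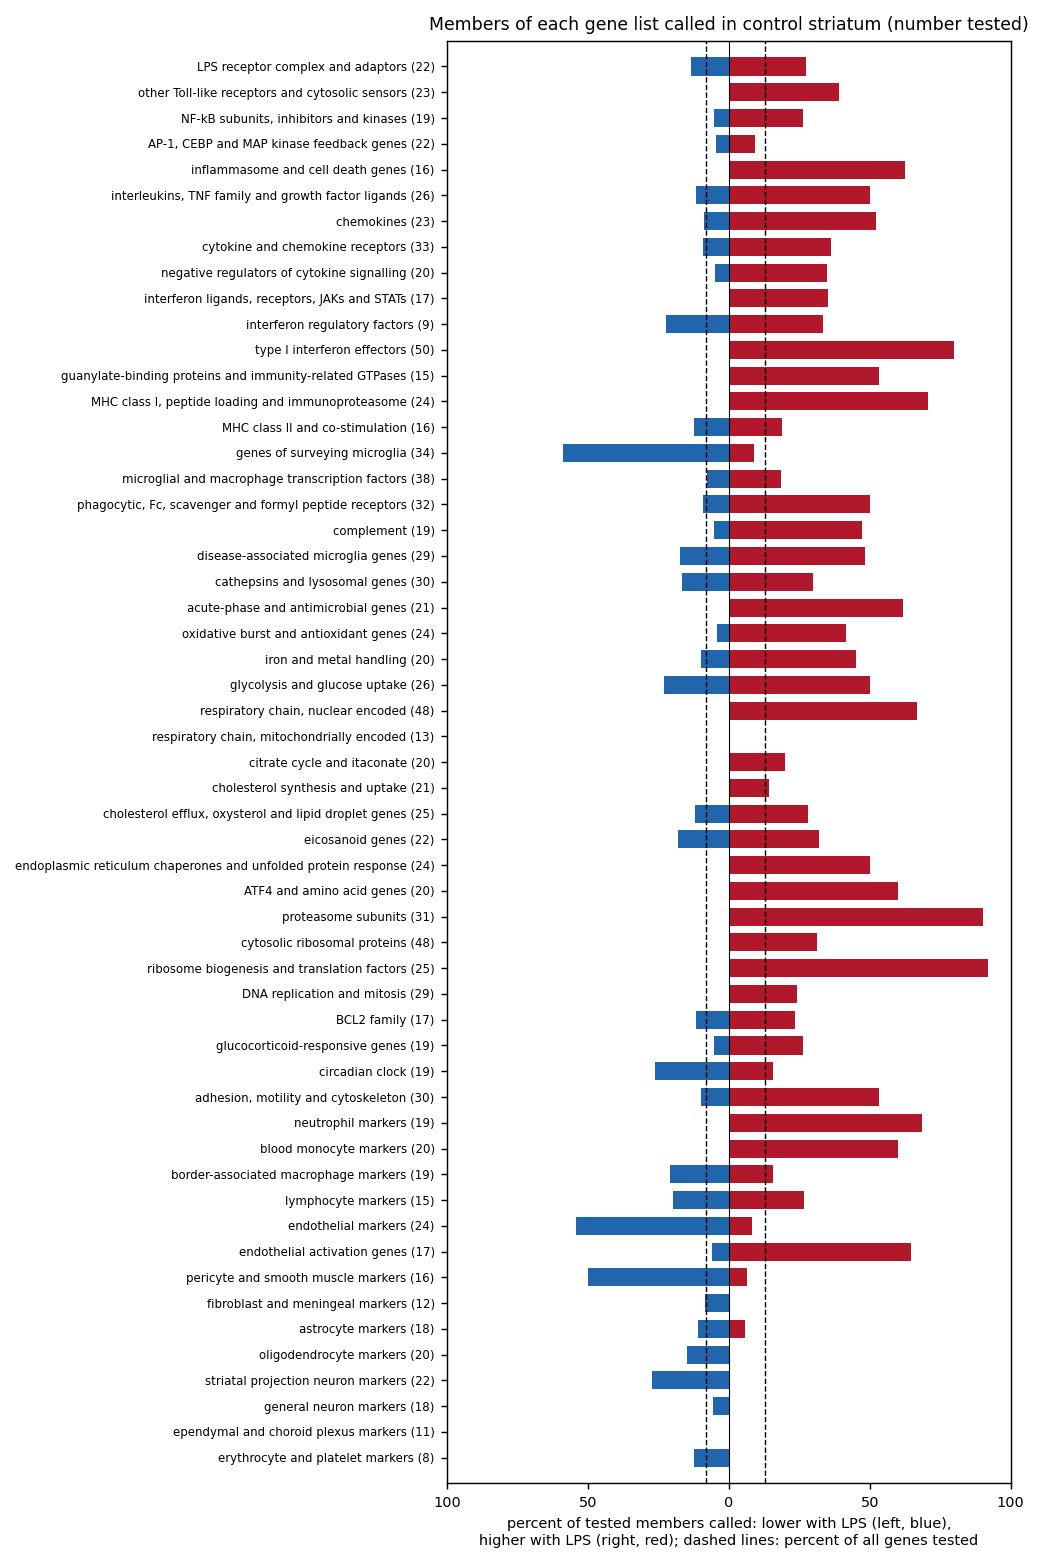
Percent of the tested members of each gene list called higher with LPS (red bars, right of 0) or lower with LPS (blue bars, left of 0) in control striatum, with the number tested beside each list's name; dashed lines mark the 12.7% and 8.15% of all genes. Ribosome biogenesis (23 of 25), proteasome (28 of 31) and type I interferon effector genes (40 of 50) reach far past the line on the right, and surveying microglia (20 of 34) and endothelial genes (13 of 24) on the left.

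Receptors for phagocytosis rose in 16 of 32 cases and fell in 3 (median 0.68). Fcgr4, an activating receptor for immunoglobulin G, was at 321, 424 and 529 CPM with LPS, against 15.9, 15.5 and 17.7 CPM with saline (4.70 ± 0.19, adjusted p = 5.16e-12). Msr1, which takes up modified lipoproteins, was at 688, 338 and 481 CPM with LPS, against 13, 8.64 and 14.3 CPM with saline (5.39 ± 0.31). The groups did not overlap for either gene. The other 4 Fc receptor genes of the list rose, Fcgr1 by 1.54 ± 0.14, Fcgr3 by 1.22 ± 0.21, the inhibitory Fcgr2b by 1.01 ± 0.17 and the shared chain gene Fcer1g by 0.90 ± 0.15. The amplifier of myeloid inflammation Trem1 rose by 5.49 ± 0.52, the paired immunoglobulin-like receptor gene Pilra by 3.96 ± 0.20 and the formyl peptide receptor genes Fpr1 and Fpr2 by 4.95 ± 0.56 and 6.18 ± 1.11. The scavenger receptor gene Cd36 (-1.57 ± 0.34), the integrin gene Itgb3 (-1.19 ± 0.27) and the mannose receptor gene Mrc1 (-0.95 ± 0.31) fell. The count of falls was 5 without LPS replicate 3. Mrc1 missed the threshold without LPS replicate 1 or 2 or saline replicate 1, 2 or 3 or with the excluded library added back (adjusted p up to 0.222).

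Complement genes rose in 9 of 19 cases (median 0.67). Factor B (Cfb), of the alternative pathway, was at 39.6, 25.4 and 53 CPM with LPS, against 1.11, 2.34 and 0.737 CPM with saline (4.82 ± 0.56). C3, on which all pathways meet, was at 17.5, 15.8 and 25.1 CPM with LPS, against 3.34, 3.36 and 2.35 CPM with saline (2.69 ± 0.47). The anaphylatoxin receptor gene C5ar1 was at 1568, 1124 and 1964 CPM with LPS, against 179, 155 and 348 CPM with saline (2.77 ± 0.37). The groups did not overlap. The recognition chain genes C1qa and C1qb rose by 0.85 ± 0.16 and 0.67 ± 0.15, and C4b by 2.31 ± 0.38. The receptor gene C3ar1 rose by 1.15 ± 0.13 and Cd55, which shields cells from complement, by 2.63 ± 0.43. The single fall was in the complement receptor chain gene Itgam (-0.64 ± 0.21, adjusted p = 0.0364), which encodes the CD11b that the beads bind. C1qb missed the threshold in the 6 libraries alone (adjusted p = 0.0528), and Itgam missed the threshold without LPS replicate 1 or 2 or saline replicate 1 or 2, with the excluded library added back or in the 6 libraries alone (adjusted p up to 0.27).

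Of 29 genes that mark disease-associated microglia in mouse models of neurodegeneration, 14 rose and 5 fell (median 0.89). The tetraspanin gene Cd63 rose by 2.31 ± 0.15, the surface antigen gene Cd52 by 1.58 ± 0.20, the cystatin gene Cst7 by 2.10 ± 0.21, the galectin gene Lgals3 by 1.54 ± 0.29 and the oxysterol-producing Ch25h by 3.18 ± 0.45, while Trem2, Igf1, the tetraspanin gene Cd9 (-0.59 ± 0.11), Ank (-0.87 ± 0.26) and the cathepsin gene Ctsd (-0.62 ± 0.15) fell. Cathepsins and lysosomal genes rose in 9 of 30 cases and fell in 5 (median 0.07). Cathepsin C (Ctsc) rose by 1.95 ± 0.26, and cathepsins L, Z and H (Ctsl, Ctsz and Ctsh) by 1.24 ± 0.15, 0.94 ± 0.16 and 0.84 ± 0.11, whereas the ganglioside-degrading enzyme gene Hexa fell (-0.96 ± 0.15). Falls numbered 3 without LPS replicate 2 among cathepsins and lysosomal genes. In the 6 libraries alone, falls numbered 2 in this list and 3 among disease-associated genes. Ank missed the threshold without LPS replicate 1 or 3 or saline replicate 2 or in the 6 libraries alone (adjusted p up to 0.107), and Ctsd missed the threshold in the 6 libraries alone (adjusted p = 0.0988).

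Acute-phase and antimicrobial genes rose in 13 of 21 cases and none fell (median 3.10). Lcn2, which withholds iron from bacteria by binding their siderophores, was at 162, 368 and 240 CPM with LPS, against 1.89, 2.0 and 2.18 CPM with saline (6.98 ± 0.73, adjusted p = 9.77e-07). The protease inhibitor gene Serpina3n was at 59, 18.6 and 22.3 CPM with LPS, against 0.0967, 0.213 and 0.235 CPM with saline (7.44 ± 0.71). The glycoprotein gene Lrg1 was at 144, 69.3 and 109 CPM with LPS, against 1.26, 0.553 and 1.27 CPM with saline (6.69 ± 0.51). All 3 were at or below 2.18 CPM in every saline library. Acod1, which makes itaconate, was at 33.4, 22.3 and 27.3 CPM with LPS, against 0.387, 0.639 and 0 CPM with saline (6.39 ± 1.01), and haptoglobin (Hp) rose by 4.49 ± 0.63. Several of these genes are also expressed by neutrophils or endothelium, so that their rise cannot be assigned to microglia in bulk libraries, where fewer cells of a type and less RNA per cell cannot be told apart.

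Oxidative burst and antioxidant genes rose in 10 of 24 cases and fell in 1 (median 0.60). The catalytic NADPH oxidase subunit gene Cybb was at 191, 133 and 174 CPM with LPS, against 30, 41 and 31.1 CPM with saline (2.29 ± 0.23), its partner Cyba rose by 1.22 ± 0.18, the mitochondrial superoxide dismutase gene Sod2 by 1.30 ± 0.16 and the thioredoxin reductase gene Txnrd1 by 1.19 ± 0.19. The small GTPase gene Rac2, which switches the oxidase on, rose by 0.73 ± 0.11 and the peroxiredoxin gene Prdx5 by 1.07 ± 0.16. Catalase (Cat) fell (-0.62 ± 0.10). Among iron genes, Slc40a1, the only known iron exporter of mammalian cells, was at 89, 58 and 71.3 CPM with LPS, against 272, 295 and 306 CPM with saline (-2.00 ± 0.25, adjusted p = 7.38e-06). The importer gene Slc39a14 was at 33.2, 46.8 and 50.9 CPM with LPS, against 4.93, 2.17 and 4.15 CPM with saline (3.54 ± 0.34), both without overlap. The transferrin receptor gene Tfrc rose by 0.81 ± 0.19 and the ferritin heavy chain gene Fth1 by 1.05 ± 0.16, as did the metal transporter genes Slc11a1 by 0.72 ± 0.12 and Slc11a2 by 0.83 ± 0.17. In all, 9 of 20 iron and metal genes rose and 2 fell (median 0.69), a count of falls that was 1 without any one of the 6 libraries, when Ncoa4 was not called and Slc40a1 was. Tfrc missed the threshold with the excluded library added back (adjusted p = 0.106), and Ncoa4 missed the threshold without LPS replicate 1, 2 or 3 or saline replicate 1, 2 or 3, with the excluded library added back, with no filter or in the 6 libraries alone (adjusted p up to 0.328).

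Glycolysis genes rose in 13 of 26 cases and fell in 6 (median 0.37). Lactate dehydrogenase A (Ldha) was at 576, 580 and 638 CPM with LPS, against 287, 278 and 244 CPM with saline (1.15 ± 0.11, adjusted p = 4.63e-07). Pfkfb3, which activates phosphofructokinase, was at 396, 247 and 436 CPM with LPS, against 133, 103 and 133 CPM with saline (1.55 ± 0.28). The lysosomal transporter gene Slc2a6 was at 30.8, 16.1 and 40.9 CPM with LPS, against 1.93, 2.34 and 1.27 CPM with saline (3.99 ± 0.47), and Gapdh rose by 0.99 ± 0.18. The lactate dehydrogenase isoform gene Ldhb fell (-0.60 ± 0.17). So did the enzyme genes Pfkm, Hk3 and Hk1, with log2 fold changes of -1.34, -0.76 and -0.65. Of the transporters of the list, Slc2a1 (-1.03 ± 0.29) and Slc2a5 fell. Slc2a1 is also a marker of brain endothelium. The count of rises was 8 without saline replicate 1 and 5 in the 6 libraries alone. Ldhb missed the threshold without LPS replicate 2 or 3 or saline replicate 2 or in the 6 libraries alone (adjusted p up to 0.101), and Slc2a1 missed the threshold without saline replicate 1 (adjusted p = 0.0768). Pfkm and Hk1 also missed the threshold in other settings (adjusted p up to 0.0506 and 0.172).

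Nuclear genes of the respiratory chain rose in 32 of 48 cases and none fell (median 0.53), while of the 13 genes encoded in mitochondria none was called (median -0.26). The complex I subunit gene Ndufa12 was at 76.3, 42.4 and 53.8 CPM with LPS, against 19.6, 20 and 26.6 CPM with saline (1.38 ± 0.21, adjusted p = 6.83e-05), the complex III subunit gene Uqcrq rose by 1.22 ± 0.20, the cytochrome c gene Cycs by 1.16 ± 0.14, its docking partner gene Cyc1 by 0.91 ± 0.12 and the complex IV gene Cox5a by 1.04 ± 0.15. The mitochondrial mt-Co1 was at 4089, 8101 and 3449 CPM with LPS, against 8579.6, 8655 and 4218 CPM with saline (-0.46 ± 0.34, adjusted p = 0.384). The count of nuclear genes was 21 without saline replicate 1 and 18 in the 6 libraries alone, and 3 mitochondrial genes fell without LPS replicate 2. Citrate cycle genes rose in 4 of 20 cases (median 0.16), which were Idh3a (0.93 ± 0.14), Mdh2 (0.84 ± 0.16), Suclg1 (0.48 ± 0.13) and Acod1, and in 2 in the 6 libraries alone. Over all genes the share that rose was 12.7%. Mdh2 missed the threshold in the 6 libraries alone (adjusted p = 0.0512), and Suclg1 missed the threshold without LPS replicate 1, with no filter or in the 6 libraries alone (adjusted p up to 0.0958).

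**Figure D4:**
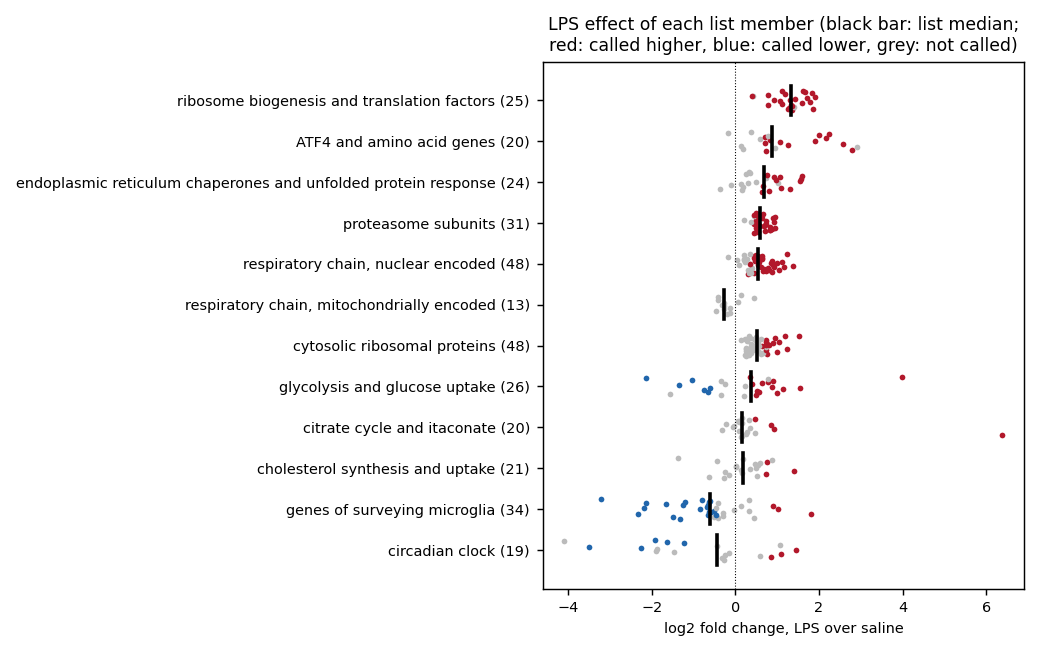
Log2 fold change (LPS over saline) of each tested member of 12 lists in control striatum; each point is a gene, red where called higher, blue where called lower and grey otherwise, and the black bar is the list's median. Respiratory chain genes of the nucleus have a median of 0.53 and those of mitochondria -0.26.

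Cholesterol synthesis and uptake genes rose in 3 of 21 cases (median 0.17), a share near the 12.7% of all genes. These were Pmvk (0.76 ± 0.25), Fdps (0.72 ± 0.14) and Hsd17b7 (1.40 ± 0.29). Among 25 efflux, oxysterol and lipid droplet genes 7 rose and 3 fell (median 0.06), with 5 falls counted without LPS replicate 1 or 2. The lipid droplet coat gene Plin2 was at 256, 148 and 164 CPM with LPS, against 52.9, 61.6 and 66 CPM with saline (1.65 ± 0.23, adjusted p = 2.89e-05) and the cholesterol esterifying Soat1 rose by 1.14 ± 0.20 and Hilpda, which inhibits the droplet lipase, by 1.50 ± 0.26, while the droplet lipase gene Pnpla2 fell (-0.94 ± 0.23). Eicosanoid genes rose in 7 of 22 cases and fell in 4 (median 0.80). The inducible cyclooxygenase gene Ptgs2 was at 213, 81.1 and 196 CPM with LPS, against 42.9, 31.2 and 26.8 CPM with saline (2.28 ± 0.36). The 5-lipoxygenase gene Alox5, which starts leukotriene synthesis, was at 292, 292 and 313 CPM with LPS, against 76.9, 69.3 and 75 CPM with saline (2.02 ± 0.16), with its activating protein gene Alox5ap at 1.19 ± 0.13. The phospholipase gene Pla2g4a, which frees arachidonic acid, rose by 1.07 ± 0.18. The prostaglandin-degrading Hpgd fell (-1.18 ± 0.20) and the prostaglandin E2 receptor gene Ptger3 (-2.47 ± 0.28). The count of eicosanoid genes that fell was 2 in the 6 libraries alone and without either LPS replicate 2 or saline replicate 1. Pmvk missed the threshold without LPS replicate 1 or saline replicate 1 or 3, with no filter or in the 6 libraries alone (adjusted p up to 0.158).

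Genes for making, folding and degrading protein rose broadly. Of 24 endoplasmic reticulum chaperone and unfolded protein response genes, 12 rose and none fell (median 0.69), with 6 rises counted in the 6 libraries alone. The chaperone gene Hspa5, or BiP, was at 7435, 2754 and 3543 CPM with LPS, against 1605, 1524 and 1554 CPM with saline (1.55 ± 0.33, adjusted p = 0.00189), with LPS replicate 1 above the others, and Manf, a secreted factor of the stressed reticulum, at 309, 218 and 313 CPM with LPS, against 83.2, 94.8 and 106 CPM with saline (1.56 ± 0.18). The co-chaperone genes Sdf2l1 and Dnajb11 rose by 1.60 ± 0.27 and 1.10 ± 0.21. The transcription factor genes Xbp1 (0.32 ± 0.18, adjusted p = 0.238) and Ddit3 (-0.38 ± 0.36, adjusted p = 0.509) were not called.

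The endoplasmic reticulum stress element (ERSE), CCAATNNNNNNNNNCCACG, was in a window of 18 of all 12008 matched genes (0.15%). Of these 18, 8 were among the 21 matched genes of this list, 5 of the 9 that rose and 3 of the 12 that were not called. The matches of 4 that rose are shown because the element is so rare (GRCm38.p6; Hspa5 chr2:34772020-34772048, Pdia6 chr12:17266486-17266514, Dnajc3 chr14:118937822-118937850 and Creld2 chr15:88819515-88819543, plus strand; match in capitals, in Creld2 as the reverse complement).
Hspa5: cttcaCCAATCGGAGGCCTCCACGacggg
Pdia6: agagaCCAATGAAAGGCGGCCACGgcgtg
Dnajc3: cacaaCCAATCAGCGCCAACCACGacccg
Creld2: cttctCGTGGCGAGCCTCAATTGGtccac
Pdia6, a disulfide isomerase gene, rose by 0.92 ± 0.24, the co-chaperone gene Dnajc3 by 0.66 ± 0.17 and Creld2 by 1.31 ± 0.24. Pdia6 missed the threshold without LPS replicate 3 or in the 6 libraries alone (adjusted p up to 0.0688), and Dnajc3 missed the threshold without LPS replicate 1 or in the 6 libraries alone (adjusted p up to 0.0736).

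Of 20 genes of the ATF4 pathway and amino acid supply, 12 rose and none fell (median 0.88). The serine and one-carbon enzyme gene Shmt2 was at 103, 177 and 139.9 CPM with LPS, against 34, 29.2 and 30.6 CPM with saline (2.16 ± 0.17, adjusted p = 4.43e-08). Psat1 was at 163, 238 and 174 CPM with LPS, against 49.7, 52.7 and 50.8 CPM with saline (1.91 ± 0.16) and asparagine synthetase (Asns) at 52, 60.2 and 32.3 CPM with LPS, against 8.6, 7.92 and 4.49 CPM with saline (2.78 ± 0.35). The groups did not overlap. Mthfd2 rose by 2.57 ± 0.40 and Phgdh by 1.06 ± 0.15, and the glycyl-tRNA synthetase gene Gars by 1.26 ± 0.14, whereas Atf4 mRNA had 0.18 ± 0.40 (adjusted p = 0.809).

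Proteasome subunits rose in 28 of 31 cases, by small amounts (median 0.58). Psmd14, the deubiquitinase of the lid, was at 149, 114 and 103 CPM with LPS, against 63.9, 67.6 and 58.4 CPM with saline (0.94 ± 0.15, adjusted p = 1.25e-04), and the core genes Psmb3 and Psma7 and the ATPase genes Psmc4 and Psmc5 rose by 0.83 ± 0.12, 0.87 ± 0.14, 0.91 ± 0.14 and 0.74 ± 0.12. In the 6 libraries alone 14 rose. Ribosome biogenesis and translation factor genes rose in 23 of 25 cases (median 1.32). The nucleolar genes Nop56 and Nop58 were at 399.7, 195 and 210 CPM with LPS, against 85.2, 84.9 and 76.2 CPM with saline (1.71 ± 0.20) and at 164, 132 and 85.2 CPM with LPS, against 39.8, 37.5 and 25.1 CPM with saline (1.90 ± 0.25). Myc, a known regulator of ribosome biogenesis genes whose part here was not tested, was at 163, 178 and 205 CPM with LPS, against 83.7, 64.5 and 111 CPM with saline (1.08 ± 0.25, adjusted p = 0.00356). None of the 3 overlapped. Rrp9, Gnl3 and Bop1, of rRNA processing, rose by 1.67 ± 0.17, 1.78 ± 0.20 and 1.34 ± 0.15. Genes for the proteins of the cytosolic ribosome itself rose in 15 of 48 cases (median 0.51), Rpl38 by 1.23 ± 0.26, Rps18 by 0.90 ± 0.22 and Rps19 by 0.72 ± 0.17, and in 8 without LPS replicate 2 or saline replicate 2.

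The E-box CACGTG, a site of MYC and other factors, was in the windows of 7 of 20 matched ribosome biogenesis genes, against 11.2% of all genes and 14.3% of those called higher. It was also in 8 of 23 matched cathepsin and lysosomal genes, whose list had a median log2 fold change of 0.07. The same held for 5 of 16 clock genes (list median -0.45) and 5 of 17 glucocorticoid-responsive genes (0.13). Among genes called higher at least 8-fold the share was 6.4%. The stretches of Nop2, which rose by 1.42 ± 0.16, and Eif5a, which rose by 1.32 ± 0.15, are shown with the match in capitals (GRCm38.p6; Nop2 chr6:125131813-125131838, plus strand; Eif5a chr11:69921445-69921470, minus strand).
Nop2: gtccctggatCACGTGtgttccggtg
Eif5a: ggggcggggtCACGTGtgtgcgtcat

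Genes of the cell cycle rose in 7 of 29 cases (median 0.40), with none lower. These were the replication helicase genes Mcm2 (1.43 ± 0.39), Mcm5 (1.41 ± 0.33) and Mcm6 (1.09 ± 0.27), the clamp gene Pcna (0.66 ± 0.23), Ccnd1 (0.72 ± 0.20), Cdk4 (0.46 ± 0.11) and the inhibitor gene Cdkn1a (1.44 ± 0.28). Genes of mitosis were not called, such as Top2a with -0.82 ± 0.52 (adjusted p = 0.305). In the 6 libraries alone 4 of the list rose. Of 17 BCL2 family genes 4 rose, the pro-survival Bcl2a1a (2.29 ± 0.24), Bcl2a1b (0.96 ± 0.20) and Bcl2a1d (2.24 ± 0.24), whose reads are shared among near-identical copies, and the pro-apoptotic Bax (0.90 ± 0.15), and 2 fell (median 0.48), including the pro-apoptotic Bcl2l11 (-1.25 ± 0.19). The count of falls was 1 without LPS replicate 2 or 3 or without any 1 saline library. Mcm2 missed the threshold without LPS replicate 3 or saline replicate 1 or 3 (adjusted p up to 0.0593), and Pcna missed the threshold without LPS replicate 1 or 2 or saline replicate 1, 2 or 3, with the excluded library added back or in the 6 libraries alone (adjusted p up to 0.173). Ccnd1 missed the threshold without LPS replicate 2 or in the 6 libraries alone (adjusted p up to 0.0958), and Cdk4 missed the threshold with no filter or in the 6 libraries alone (adjusted p up to 0.0868).

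Clock genes changed in part. Nr1d2, which encodes a repressor of the core clock, was at 4.44, 4.18 and 3.95 CPM with LPS, against 50.7, 34.1 and 57.2 CPM with saline (-3.50 ± 0.27, adjusted p = 2.36e-08). Its relative Nr1d1 was at 7.4, 2.46 and 2.33 CPM with LPS, against 19.5, 15 and 23.6 CPM with saline (-2.25 ± 0.46). The output factor gene Tef was at 7.77, 9.05 and 5.76 CPM with LPS, against 30.7, 32.4 and 22.4 CPM with saline (-1.92 ± 0.29). All LPS libraries lay below all saline libraries. Nfil3, which opposes Tef at shared sites, was at 90, 93.9 and 107 CPM with LPS, against 43.9, 41 and 21.1 CPM with saline (1.45 ± 0.31, adjusted p = 0.00185), and Cry1 rose by 1.08 ± 0.27. Of 19 clock genes, 3 rose and 5 fell (median -0.45), with 3 falls counted without LPS replicate 2 or 3 and in the 6 libraries alone. Clock had -0.26 ± 0.26 and was not called (adjusted p = 0.532). The hour of day of injection and collection is not stated in the labels used here, and a difference in it between the groups was not tested. Of 19 glucocorticoid-responsive genes, 5 rose and 1 fell (median 0.13). Beside the counts of these 2 lists, 12.7% of all genes rose and 8.15% fell. The steroid-induced genes Fkbp5 (-0.26 ± 0.45, adjusted p = 0.751) and Tsc22d3 (-0.76 ± 0.37, adjusted p = 0.159) were not called, and Anxa1, an anti-inflammatory mediator of steroids, rose by 2.04 ± 0.33 and the metallothionein gene Mt2 by 1.07 ± 0.28. The single fall was in the kinase gene Sgk1 (-1.22 ± 0.39), and 2 genes fell without saline replicate 3. Sgk1 missed the threshold without LPS replicate 2 or 3 or saline replicate 1 or 2 or with the excluded library added back (adjusted p up to 0.131).

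Adhesion, motility and cytoskeleton genes rose in 16 of 30 cases and fell in 3 (median 0.52). Itgal, the integrin chain of LFA-1, was at 17.8, 21.8 and 37 CPM with LPS, against 0.483, 0.511 and 1.04 CPM with saline (5.20 ± 0.42, adjusted p = 4.29e-08). The hyaluronan receptor gene Cd44 was at 24.3, 37.2 and 33.9 CPM with LPS, against 2.32, 2.26 and 1.37 CPM with saline (4.01 ± 0.40). The groups were apart for both. The urokinase receptor gene Plaur rose by 2.06 ± 0.37, the actin-binding Coro1a by 0.93 ± 0.14 and the matrix protease gene Mmp9, which neutrophils store, by 2.24 ± 0.50. The protease gene Adam8 rose by 2.93 ± 0.40. Fscn1, an actin bundling gene of microglia, fell (-0.87 ± 0.21) and so did the CD47 receptor gene Sirpa (-0.77 ± 0.13).

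Many markers of other blood leukocytes rose with LPS. Neutrophil markers rose in 13 of 19 cases and none fell (median 3.27), and their summed level was 1230 to 1660 CPM with LPS and 385 to 424 CPM with saline. The list shares Il1r2, Lcn2 and Mmp9, among others, with the lists above, and no marker was at 0 in a whole group. S100a8, one of the most abundant neutrophil genes, was at 120.2, 161 and 261 CPM with LPS, against 8.7, 12.6 and 20 CPM with saline (3.71 ± 0.65, adjusted p = 2.91e-04). Ly6g, the defining surface marker, was at 2.31, 2.36 and 1.33 CPM with LPS, against 0.242, 0 and 0 CPM with saline (4.67 ± 1.48, adjusted p = 0.0284). Cxcr2, their chemokine receptor gene, rose by 4.65 ± 0.63 and S100a9 by 3.76 ± 0.70. Monocyte markers rose in 12 of 20 cases (median 2.17), and summed to 1310 to 1960 CPM with LPS and 908 to 1260 CPM with saline. Ly6c2, the marker of inflammatory monocytes, was at 8.28, 17.9 and 42.5 CPM with LPS, against 0.773, 0.894 and 0.536 CPM with saline (4.97 ± 0.79), where reads are shared with the near-identical Ly6i (5.78 ± 0.81). Ccr2, their chemokine receptor gene, was at 3.56, 3.11 and 10.8 CPM with LPS, against 2.13, 7.02 and 6.2 CPM with saline (0.19 ± 0.49, adjusted p = 0.842), which overlapped between the groups. Ms4a6c (3.65 ± 0.25) and Ms4a4c (3.74 ± 0.37) rose. Border-associated macrophage markers rose in 3 of 19 cases and fell in 4 (median 0.07), with 2 falls counted without LPS replicate 2, and summed to 1040 to 1290 CPM with LPS and 863 to 1040 CPM with saline. Over all genes, 12.7% rose and 8.15% fell. Siglec1, a sialic acid receptor gene induced by interferon, rose by 3.24 ± 0.43 and the adaptor gene Dab2 by 1.27 ± 0.25, while the lectin genes Mgl2 (-1.89 ± 0.39), Cd209a (-2.52 ± 0.54) and Colec12 (-0.95 ± 0.27) fell. The part of these cells in the rises described above was not tested. Ly6g missed the threshold without LPS replicate 1 or 2 or saline replicate 2 or 3 (adjusted p up to 0.107), and Colec12 missed the threshold without LPS replicate 2 or with the excluded library added back (adjusted p up to 0.0756).

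Lymphocyte markers summed to 178 to 308 CPM with LPS and 481 to 504 CPM with saline, most of it from Ighm, and 4 of 15 rose while 3 fell (median 0.82). Granzyme A (Gzma), of cytotoxic lymphocytes, rose by 2.15 ± 0.53 and granzyme B (Gzmb) by 3.42 ± 0.67, while Ighm fell (-1.17 ± 0.26) and Cd4 (-1.88 ± 0.48). The natural killer cell gene Klrb1c had no count in any saline library and was at least 9.52-fold higher with LPS against 3 counts over the saline group. The count of rises was 2 without saline replicate 1 or 2 and in the 6 libraries alone, where 1 fell. Cd4 missed the threshold without saline replicate 1 or in the 6 libraries alone (adjusted p up to 0.10), and Klrb1c missed the threshold without saline replicate 1, 2 or 3 (adjusted p up to 0.0577).

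Endothelial markers fell in 13 of 24 cases and rose in 2 (median -1.14, summed level 1990 to 2420 CPM with LPS and 2750 to 5040 CPM with saline), while genes of activated endothelium rose in 11 of 17 cases and fell in 1 (median 1.07, 1230 to 1700 CPM with LPS and 985 to 1210 CPM with saline). The activation list shares Il6, Cxcl1 and Icam1, among others, with the cytokine, chemokine and adhesion lists. Its rises cannot be assigned to endothelium in these bulk libraries. Itm2a was at 33.7, 52.2 and 22.4 CPM with LPS, against 535, 425 and 184 CPM with saline (-3.40 ± 0.49). Flt1, a VEGF receptor gene, was at 39.9, 55.2 and 35.1 CPM with LPS, against 266, 229 and 96.1 CPM with saline (-2.18 ± 0.40), with saline replicate 3 below the other saline libraries in both. Ptprb (-2.59 ± 0.39), Pltp (-2.34 ± 0.39) and Eng (-1.33 ± 0.17) fell. Vcam1, a leukocyte adhesion molecule gene, rose by 0.96 ± 0.28, and the uridine phosphorylase gene Upp1 by 3.79 ± 0.74. Pericyte and smooth muscle markers fell in 8 of 16 cases (median -1.21), and this count was 5, 2 and 1 without LPS replicates 1, 2 and 3, and 2 and 1 without saline replicates 1 and 2. Their sum was 313 to 590 CPM with LPS and 746 to 1230 CPM with saline. The mural genes Notch3 (-2.43 ± 0.49), Rgs5 (-1.26 ± 0.35), Myh11 (-1.45 ± 0.44) and Acta2 (-1.45 ± 0.45) fell, and Anpep, which myeloid cells also carry, rose by 1.66 ± 0.39. Endothelial rises numbered 0 without LPS replicate 2, 0 without saline replicate 3 and 1 without saline replicate 1. The fall among activation genes was in Edn1. Whether the levels of microglial genes moved with these sums was not tested. Vcam1 missed the threshold without LPS replicate 1 or saline replicate 2 or 3 (adjusted p up to 0.0767), and Rgs5 missed the threshold without LPS replicate 3 or saline replicate 2 (adjusted p up to 0.0638). Myh11 missed the threshold without LPS replicate 2 or 3 or saline replicate 1 or 2 or with the excluded library added back (adjusted p up to 0.102), and Acta2 missed the threshold without LPS replicate 2 or 3 or saline replicate 1 or 2 (adjusted p up to 0.12). Edn1 missed the threshold without LPS replicate 2 or 3 or saline replicate 1 or 2 or in the 6 libraries alone (adjusted p up to 0.244).

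Oligodendrocyte markers fell in 3 of 20 cases (median -0.77, summed level 3850 to 6400 CPM with LPS and 4980 to 8930 CPM with saline), a count of 0 without LPS replicate 2 and 1 without saline replicate 1. These were Ugt8a (-2.39 ± 0.74), Mbp (-2.91 ± 0.85) and Mobp (-2.83 ± 0.87). Striatal projection neuron markers fell in 6 of 22 cases (median -1.76, 173 to 194 CPM with LPS and 267 to 547 CPM with saline), 3 without saline replicate 2 and 11 in the 6 libraries alone. Among them were Penk (-2.60 ± 0.60), of the indirect pathway neurons, Adcy5 (-2.42 ± 0.71), Gng7 (-2.06 ± 0.50), Pde1b (-1.22 ± 0.28) and Foxp1 (-0.83 ± 0.15). Of 18 general neuron markers 1 fell (median -1.62), Stmn2 (-1.99 ± 0.58), with a summed level of 50.6 to 65.9 CPM with LPS and 107 to 277 CPM with saline. The count was 0 without LPS replicate 2 or 3 or saline replicate 1 or 2, and 6 in the 6 libraries alone. Fibroblast markers fell in 1 of 12 cases (median -0.89), Col3a1 (-2.72 ± 0.72), and in 3 without LPS replicate 1, while 2 rose without LPS replicate 2 and 1 without LPS replicate 3. Ependymal markers were not called in any of 11 cases (median -0.40), and erythrocyte and platelet markers fell in 1 of 8 (median 0.04), Gp9 (-1.74 ± 0.25). Beside the counts of these lists, 12.7% of all genes rose and 8.15% fell. Of 18 astrocyte markers, 1 rose and 2 fell (median -0.73), Slc1a3 (-0.74 ± 0.23) and Glul (-0.71 ± 0.23). The rise was in Gfap, the filament gene of reactive astrocytes, at 195, 7.61 and 17.7 CPM with LPS, against 12.3, 13.1 and 7.34 CPM with saline (2.75 ± 0.92, adjusted p = 0.0391), with LPS replicate 1 far above every other library. The count of falls was 10 without LPS replicate 1, 1 without LPS replicate 3 or saline replicate 2 or 3 and 0 without LPS replicate 2 or saline replicate 1. Ugt8a missed the threshold without LPS replicate 1 or 2 or saline replicate 3 (adjusted p up to 0.10), and Mbp missed the threshold without LPS replicate 2 or 3 or saline replicate 1 or with the excluded library added back (adjusted p up to 0.0761). Mobp and Stmn2 missed the threshold without LPS replicate 2 or 3 or saline replicate 1 or 2 (adjusted p up to 0.101 and 0.0652), and Adcy5 missed the threshold without LPS replicate 1 or 3 or saline replicate 2 (adjusted p up to 0.186). Gng7 missed the threshold without saline replicate 2 (adjusted p = 0.0585), and Col3a1 missed the threshold without LPS replicate 3 (adjusted p = 0.0508). Slc1a3 missed the threshold without LPS replicate 2 or saline replicate 1 or 3 or in the 6 libraries alone (adjusted p up to 0.111), and Glul missed the threshold without LPS replicate 2 or 3 or saline replicate 1 or 2 or in the 6 libraries alone (adjusted p up to 0.153). Gfap missed the threshold without LPS replicate 1 or saline replicate 1, 2 or 3, in the 6 libraries alone or with a replicate block (adjusted p up to 0.871).

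**Figure D5:**
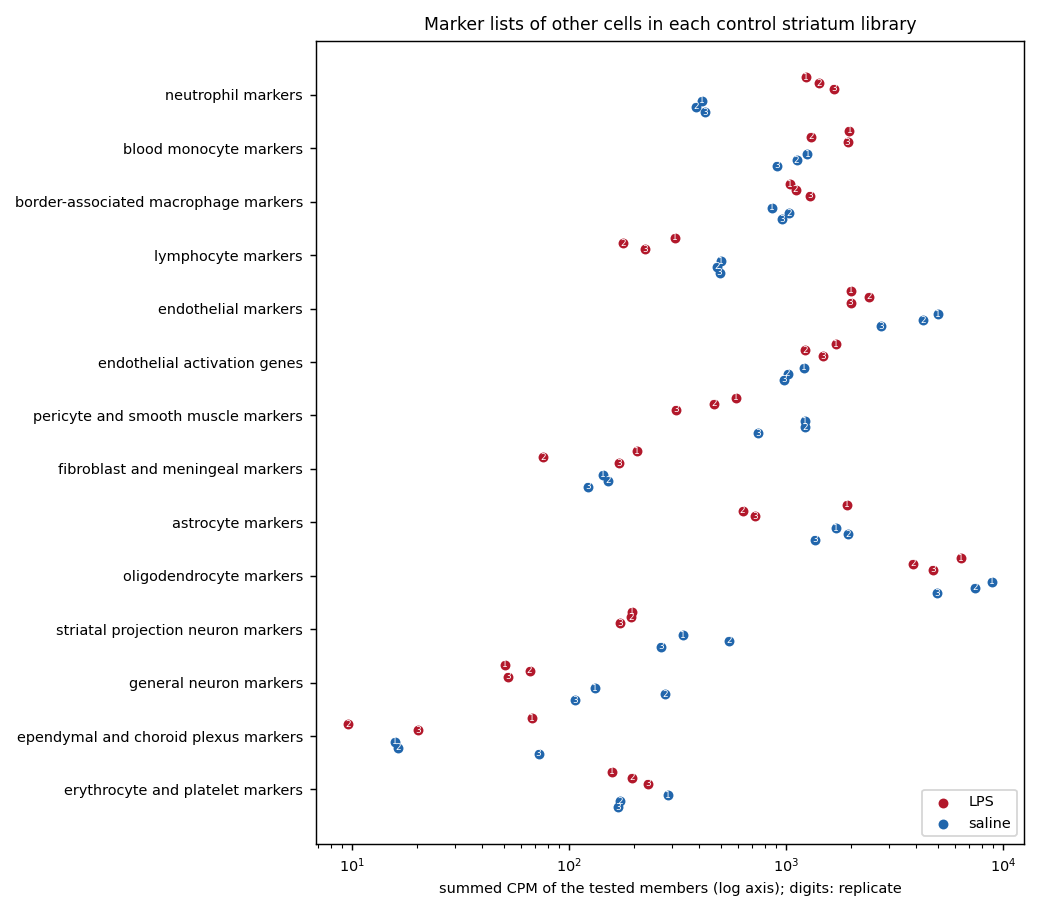
Summed CPM (log axis) of marker genes of other cell types in each control striatum library, with LPS libraries (red) above saline libraries (blue) for each list; each point is a library, marked with its replicate number. Neutrophil markers do not overlap between 1230 to 1660 CPM with LPS and 385 to 424 CPM with saline, and astrocyte and ependymal markers do.

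The spread among libraries of a group was widest, counting genes called and at or over 50 CPM on average, in different kinds of gene with LPS and with saline. With LPS the 6 widest were Gfap, Tnfsf9, C4b, Ccl5, Ier3 and the amino acid transporter gene Slc7a5. Tnfsf9 was at 881, 171 and 279 CPM with LPS, against 35.9, 41 and 26 CPM with saline, so that LPS replicate 1 stood apart from the other LPS libraries. Slc7a5 was at 40, 139 and 40 CPM with LPS, against 18.5, 25.1 and 11.2 CPM with saline (2.00 ± 0.60), where LPS replicate 2 stood apart. With saline 5 of the 6 widest were genes of oligodendrocytes and neurons. Mbp, of the myelin sheath, was at 373, 215 and 215 CPM with LPS, against 3227, 2342 and 461 CPM with saline. Bcas1, of newly forming oligodendrocytes, was at 7.58, 6.48 and 4.84 CPM with LPS, against 98.9, 71.9 and 11.4 CPM with saline (-3.27 ± 0.93). Saline replicate 3 was the low library in both, and also in Mobp, Plekhb1 (-2.25 ± 0.74) and the neuronal kinesin gene Kif5a (-2.89 ± 0.89). The sixth gene, the collagen-modifying P3h2, was at 22.1, 25.2 and 54.4 CPM with LPS, against 55.3, 132 and 213 CPM with saline (-1.97 ± 0.52). Slc7a5 missed the threshold without LPS replicate 2 or saline replicate 1 or 3 (adjusted p up to 0.196), and Mbp missed the threshold without LPS replicate 2 or 3 or saline replicate 1 or with the excluded library added back (adjusted p up to 0.0761). Bcas1 missed the threshold without LPS replicate 3 or saline replicate 1 (adjusted p up to 0.0663), and Plekhb1 missed the threshold without LPS replicate 2 or 3 or saline replicate 1 or 2 or with the excluded library added back (adjusted p up to 0.148). Kif5a missed the threshold without LPS replicate 2 or 3 or saline replicate 1 or 2 (adjusted p up to 0.096), and P3h2 missed the threshold without saline replicate 3 (adjusted p = 0.0705).

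Set against the frontal cortex of the same prenatal group, the LPS effect was tested for a difference between the regions. Of the 2180 genes that rose in striatum, 2167 also had a log2 fold change above 0 in cortex. The 1396 genes that fell were not counted in this way. List medians below 0 in striatum did not all keep their sign in cortex. The median was -1.14 in striatum and 0.40 in cortex for endothelial markers, and -1.21 and 0.41 for pericyte and smooth muscle markers. For genes of surveying microglia it was -0.60 and -0.69, and for clock genes -0.45 and -0.33. The difference of the effects, striatum minus cortex, passed for 0 of 17139 genes (0%) in edgeR, with 946 at an unadjusted p under 0.05. The count was 10 in DESeq2, 11 in edgeR with a block of same-numbered cortex and striatum libraries and 2 without control cortex LPS replicate 3. A p that misses the threshold does not show that the regions respond alike. The smallest adjusted p over all genes was 0.341. For Tlr2 the effect was 1.71 in striatum and 1.70 in cortex, a difference of 0.01 ± 0.22 (SE). For P2ry12 it was -2.19 in striatum and -2.29 in cortex (0.09 ± 0.24). For the vascular marker Flt1 it was -2.18 in striatum and -0.53 in cortex, a difference of -1.65 ± 0.55 with an adjusted p of 0.663.

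The same comparison with the striatum of MIA offspring, of which 2 LPS libraries were used, passed for 0 genes (0%) in edgeR, with 1323 at an unadjusted p under 0.05. The count was 37 in DESeq2, 6 in edgeR with only the groups compared, 1 with no filter on low counts and 1 without control striatum LPS replicate 1 or 2. The smallest adjusted p over all genes was 0.0679, shared by Ccl12, B2m and Tmem44. Ccl12 rose by 4.73 in control striatum, against 2.28 in MIA striatum (difference 2.45 ± 0.41, adjusted p = 0.0679), and B2m by 0.89 in control striatum, against -0.39 in MIA striatum (1.28 ± 0.22, adjusted p = 0.0679). Tmem44 was at -1.46 in control striatum, against -0.02 in MIA striatum (-1.45 ± 0.25, adjusted p = 0.0679). Isg15 had 2.81 in control and 0.37 in MIA striatum (2.44 ± 0.77, adjusted p = 0.565). Il1b had 2.91 in control and 3.12 in MIA striatum, a difference of -0.21 ± 0.34 (adjusted p = 0.905). The median of type I interferon effectors was 2.22 in control and 0.41 in MIA striatum, and that of class I genes 0.91 and 0.27. For acute-phase genes it was 3.10 and 3.63, and for genes of surveying microglia -0.60 and -0.49. Differences of list medians were not tested. Here too, a p that misses the threshold does not show that the 2 prenatal groups respond alike.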

How the data were processed

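Gene expression was measured by RNA sequencing of CD11b-selected cells. The authors deposited 1 table of expected counts per gene for all libraries, not scaled to depth. STAR, RSEM and DESeq2 are named in the submitters' processing notes; their versions, the genome build and the annotation are not given in the sources used here. Of the deposited expected counts 6.92% were not whole, and values were rounded. Expected counts split reads among near-identical genes by a model, so single members of such families are uncertain.

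Genes were tested with edgeR 4.0.16 in R 4.3.3, by quasi-likelihood F tests with TMM scaling, on 23 libraries in 8 groups with 15 residual degrees of freedom. The library whose title marks it as excluded was left out. Genes passed filterByExpr (minimum count 10, minimum total 15), which kept 17139 of 55487. Calls required an adjusted p under 0.05 (Benjamini-Hochberg over all genes tested). SE was the absolute log2 fold change over the root of F. CPM used TMM-scaled library sizes, and a value in parentheses after a gene is its log2 fold change ± SE from this fit. Interactions were contrasts in the same fit. Alternatives were median-of-ratios scaling, DESeq2 1.42.0, no filter on low counts, only the libraries compared, a replicate block, the excluded library added back and each replicate left out. The scripts were tested on simulated counts. Depth was 19453295 to 28229361 counts per library in control striatum and 19453295 to 29480499 over all 23 libraries. Limits against 0 counts use 3 counts over the group and cover counting error only.

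The gene lists and the part of the data described were chosen with earlier results of these data known. Named genes were the 12 largest rises and falls with at least 10 CPM and no overlap, up to 5 called members of each list by smallest adjusted p, genes of interest, the 6 with the widest spread in each group above 50 CPM, and called genes at 0 in 1 group and at least 5 CPM in the other. Further members were named after their values were seen. Promoter windows and their sequences are from RefSeq (GRCm38.p6), in which 12008 of 17126 symbols tested matched. Some genes are not reported here.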

Additional observations from a re-analysis of the deposited data

How the results depend on the processing

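The counts of genes that rose and fell with LPS were 2180 and 1396, and 2048 and 1493 with median-of-ratios scaling, 1737 and 1386 with no filter, 1846 and 1030 with the excluded library added back, 2383 and 1633 with a replicate block, 2360 and 1982 in DESeq2 and 1325 and 981 in the 6 libraries alone. Leaving out 1 replicate gave 1648 to 2043 genes higher and 935 to 1234 lower. Of called genes, 54.4% to 64.2% rose over these settings, against 61% as reported. The difference from MIA striatum was called for 0 genes as reported, 1 with no filter, 6 with only the groups compared, 37 in DESeq2 and 0 to 1 with a replicate left out (1 without control striatum LPS replicate 1 or 2). The difference from cortex was called for 0 genes as reported, 10 in DESeq2, 11 with a block of same-numbered cortex and striatum libraries and 0 to 2 with a replicate left out (2 without control cortex LPS replicate 3). The cause of these shifts was not tested. Genes not called changed sign with 1 replicate left out: Tlr4 ranged from -0.086 (without LPS replicate 3) to 0.38, Ccr2 from -0.62 (without LPS replicate 3; -0.17 without saline replicate 1) to 0.49, Cd74 from -0.053 (without LPS replicate 1) to 0.76, Rela from -0.21 to 0.10 (without LPS replicate 1; 0.011 without saline replicate 3), Atf4 from -0.59 (without LPS replicate 2; -0.081 without saline replicate 3) to 0.51 and Clock from -0.48 to 0.047 (without saline replicate 2), all on the log2 scale. No called gene named changed sign under any of these settings. Same-numbered LPS and saline libraries correlated in their deviations from the group means at -0.0401, 0.179 and 0.214, so the numbers were not taken to pair them, and the replicate block is given for its counts alone. Same-numbered striatum and cortex libraries correlated at 0.275, 0.276 and 0.314 with LPS and at 0.124, 0.0422 and 0.168 with saline, and saline replicate 2 of striatum was closer to another number (0.0741).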

Other observations

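Several gene families that no list held in full rose together with LPS in control striatum. Some members of the families given here and below, such as Gars, Aars, Pilra and Slfn5, were already counted in the lists above. The families were taken by symbol after the values were seen, and their counts are a description. Beside them, 12.7% of all genes rose and 8.15% fell. Other families were counted in the same way. Of 46 Tripartite motif genes 4 rose and 3 fell, of 70 potassium channel genes 2 and 6, and of 237 solute carrier genes 35 and 25. Of 5 Siglec genes 3 rose and 1 fell, and of 6 Cd300 genes 3 rose and 0 fell. Of 78 genes for proteins of the mitochondrial ribosome, 60 rose and 0 fell, with a median log2 fold change of 0.74, and 34 rose in the 6 libraries alone. All 8 subunits of the cytosolic chaperonin, which folds actin and tubulin, rose (median 0.99). Of 20 cytosolic aminoacyl-tRNA synthetase genes, 18 rose (median 1.06), and of 23 genes of mitochondrial protein import, 12 rose (median 0.67). The mitochondrial chaperone genes Hspd1, Hspe1, Hspa9 and Trap1 all rose (median 1.04). In the same libraries none of the 13 genes encoded in mitochondria was called.

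Of 11 genes of the Ms4a family, which encode membrane proteins of myeloid cells, 6 rose and 0 fell (median 2.03). Ms4a6d was at 1389.6, 727 and 1201 CPM with LPS, against 135, 154 and 148 CPM with saline, and its reads may be shared with near-identical members. All 3 Pilr genes rose (median 4.39), and Pilra was at 286, 173 and 198 CPM with LPS, against 12.9, 14.3 and 15.1 CPM with saline. Of 8 Schlafen genes, which include interferon-induced members, 6 rose (median 1.71). Of 25 histone genes, 6 fell and 0 rose (median -0.61), among them Hist1h1c, a linker histone gene, at 20.6, 21.9 and 20.9 CPM with LPS, against 100.2, 118 and 62 CPM with saline. The groups did not overlap for Ms4a6d, Pilra or Hist1h1c.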
